A study of Mus musculus with 18 samples.

Results

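The genes described here are a list of 35 genes whose products act in mitosis, measured in whole lungs of A/J and C57BL/6 mice that had inhaled PBS or ovalbumin, or ovalbumin after resiquimod. The genes were taken by name. Where several probe sets name a gene and no other, the one with the greatest average signal across the 18 arrays stands for it. By this rule 34 of the 35 genes were measured, out of 18193 genes represented on the array. Ccnb1, the cyclin B1 gene, was not given a value because the probe annotation pairs no probe set with it.

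Mitosis is driven by cyclin-dependent kinase 1 bound to cyclins A and B, which triggers chromosome condensation and spindle assembly. The spindle assembly checkpoint then holds the cell until all kinetochores are attached to microtubules, and the anaphase-promoting complex ends the arrest by marking securin and cyclin B for destruction. Most of the genes involved are transcribed from the late S phase to mitosis and are nearly silent in resting cells, so that their transcripts serve as markers of dividing cells. The adult lung is a tissue with few dividing cells, in which allergen inhalation recruits and expands leukocytes and can stimulate epithelial cells.

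All mice were males aged 16 weeks and had been sensitized to ovalbumin, the main protein of egg white and a common model allergen, by 3 intraperitoneal injections of 100 µg with alum. The PBS groups (PBS aerosol), the ovalbumin groups (aerosol of 1% ovalbumin) and the resiquimod groups (resiquimod and then the same 1% aerosol) of both strains each held 3 mice, with 1 array per mouse, and aerosols were given for 30 min on 3 days. Resiquimod, an agonist of Toll-like receptor 7, was injected intraperitoneally at 100 µg on 3 days, of which the first preceded the first aerosol by 24 h. All groups therefore carried the sensitization, and resiquimod was in no group given alone. The interval from the last aerosol to lung collection, and any vehicle injection of the other groups, are not given in the sources used here. The labels mark the 3 samples of each group as biological replicates, and p-values measure the spread between these. Whole lung RNA was measured, so that a change in the number of dividing cells and a change in RNA per cell cannot be told apart.

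Values are log2 expression values of the authors, on which 1 unit is a 2-fold difference. They ran from 2.00 to 14.03 over all probe sets, with array medians between 4.77 and 4.80 and a 25th percentile of 3.33. Markers of alveolar epithelium were near the top of the range on all arrays, with Sftpc between 13.72 and 13.86. Transcripts of stratified squamous epithelium, a tissue that is no part of the normal lung, set 8 of the 18 arrays apart: the mean of 9 squamous markers was at least 7.71 on these and at most 4.38 on the other 10. The 8 are the first PBS array, the first and the third ovalbumin array and the first resiquimod array of A/J, and in C57BL/6 the first and the third PBS array, the first ovalbumin array and the second resiquimod array. Results are therefore given with and without them where they differ.

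The mean of the 34 mitosis genes was lowest after PBS and highest after resiquimod in both strains. In A/J it was 4.51, 4.55 and 4.45 on the 3 PBS arrays, 5.59, 5.13 and 5.53 on the ovalbumin arrays, and 5.80, 5.50 and 5.56 on the resiquimod arrays. In C57BL/6 it was 4.61, 4.65 and 4.51 after PBS, 5.30, 5.57 and 5.49 after ovalbumin, and 6.17, 6.16 and 6.20 after resiquimod. The ovalbumin and PBS arrays did not overlap in either strain. The resiquimod arrays lay above all ovalbumin arrays in C57BL/6, whereas in A/J the second and the third resiquimod array lay within the range of the ovalbumin arrays.

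**Figure D1:**
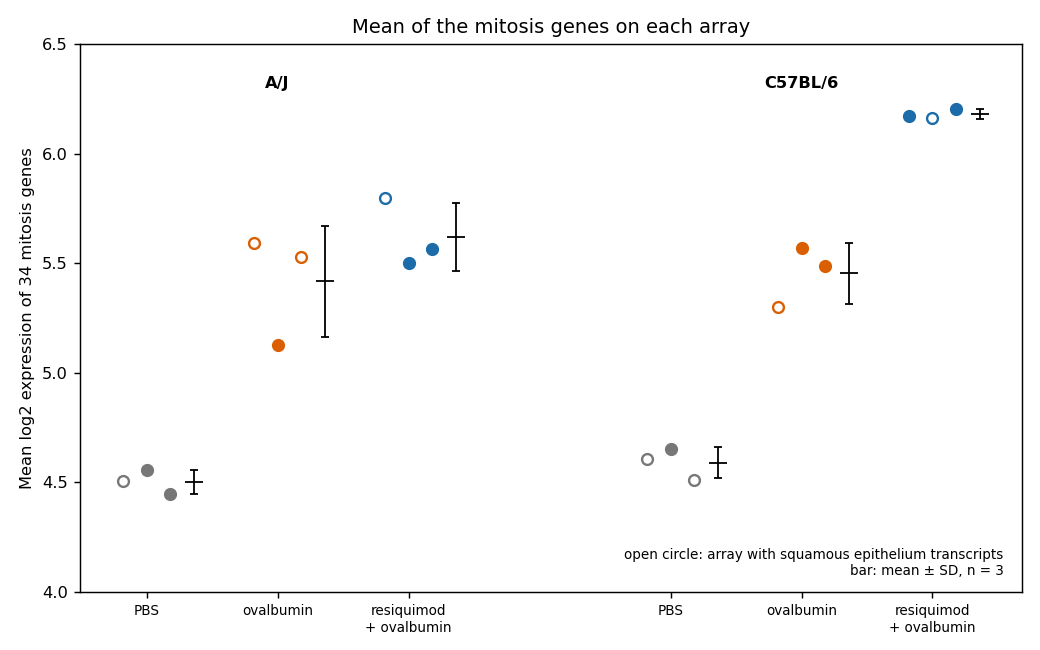
Mean log2 expression of the 34 mitosis genes (vertical axis) on each of the 18 arrays, by strain and treatment (horizontal axis). Points are arrays, open where squamous transcripts were present, and bars give the mean ± SD of 3 arrays. The 6 PBS arrays sit between 4.45 and 4.65, and the 3 resiquimod arrays of C57BL/6, between 6.16 and 6.20, lie above all the others.

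As group means ± SD (n = 3), the values were 4.50 ± 0.055, 5.42 ± 0.252 and 5.62 ± 0.155 in A/J, and 4.59 ± 0.072, 5.45 ± 0.139 and 6.18 ± 0.023 in C57BL/6, for PBS, ovalbumin and resiquimod. The mean difference from PBS to ovalbumin was thus 0.91 in A/J and 0.86 in C57BL/6, and that from ovalbumin to resiquimod 0.20 and 0.73. Gene by gene, the group means increased from PBS to ovalbumin to resiquimod for 29 of 34 genes in A/J and for 34 of 34 in C57BL/6. All 3 arrays of each group lay above those of the group before for 5 genes in A/J and 27 in C57BL/6. Of all genes, 12.4% in A/J and 10.6% in C57BL/6 did so from PBS to ovalbumin, and 12.1% and 14.5% from ovalbumin to resiquimod. The share that did so in both steps was not counted. All 34 genes had their lowest group mean after PBS, and all 34 had their highest in the resiquimod group of C57BL/6. The shares of all genes with these orders of group means were not counted.

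Differences were tested gene by gene with limma over all 45037 probe sets of the array, and a gene was called at a Benjamini-Hochberg adjusted p under 0.05. After ovalbumin, 25 of the 34 mitosis genes rose against PBS in A/J and 23 in C57BL/6, and none fell. Of all genes, 3.2% were called higher and 1.18% lower in A/J, and 1.44% higher and 0.154% lower in C57BL/6. The median difference of the mitosis genes was 0.84 in A/J, with a range from 0.20 to 2.11, and 0.78 in C57BL/6, with a range from 0.12 to 1.75. The median over all genes was -0.0043 and 0.0047. All 3 ovalbumin arrays lay above all 3 PBS arrays for 31 of 34 genes in either strain, as they did for 12.4% of all genes in A/J and 10.6% in C57BL/6.

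After ovalbumin, 21 of the 34 genes were called higher in both strains, as were 1.19% of all genes, while 2.01% of all genes were called higher in A/J alone and 0.247% in C57BL/6 alone. Bub1b, Cenpa, Cenpe and Ncapg were called in A/J alone, and Plk1 and Kif22 in C57BL/6 alone. Bub1, Kif2c, Kif4, Prc1, Foxm1, Ttk and Ndc80 were called in neither on the probe sets used, although their differences were positive throughout. Other probe sets of Kif2c and Prc1 were called higher in A/J. Of all 37 other probe sets, which cover 22 of the genes, 8 were called higher in A/J and 5 in C57BL/6. Another probe set of Kif22 had 0.40 in A/J and 0.41 in C57BL/6, neither called (adjusted p = 0.0927 and 0.156 by limma). Another each of Tpx2 and Kif11 was called in neither strain, and another of Racgap1 not in C57BL/6. For Cdca8, another was called in both strains and a further one in neither. None of the 34 genes was called for a strain difference in its ovalbumin effect by limma's interaction test, in which 0.0605% of all genes were called. At an unadjusted p under 0.05 that test gave 1 gene, Bub1b, with 0.66 ± 0.19 (SE) and an adjusted p of 0.626.

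The ovalbumin counts depended on which arrays were used. Without the 8 arrays with squamous transcripts, which leaves 1 ovalbumin and 2 PBS arrays in A/J and the reverse in C57BL/6, the counts were 6 and 12. With the squamous transcripts as a term of the fit they were 22 and 22. Within the arrays with these transcripts the mean ovalbumin difference was 1.06 in A/J and 0.74 in C57BL/6, and within those without them 0.63 and 0.88. The second ovalbumin array of A/J, the only one of its group without them, was the lowest of the 3 for 34 of 34 genes, and in C57BL/6 the first, the only one with them, was the lowest for 27. In C57BL/6 the count was 13 without the second ovalbumin array, 15 without the third, 15 without the second PBS array and 14 without the third. The part of the squamous transcripts in these differences was not tested. The second ovalbumin array of C57BL/6 was the highest of its group for 24 of the 34 genes. On the Gapdh control probe sets, whose 3′ minus 5′ log2 difference is a measure of RNA quality, this array read 0.556 and all other arrays at most 0.104, and on the actin control it read 0.671, the highest of the 18. The part of this reading in the ovalbumin result was not tested.

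Most of the calls for resiquimod were made in C57BL/6, and the test of the difference between the strains is given further on. In C57BL/6, 26 of 34 mitosis genes rose above the ovalbumin group, with a median difference of 0.73 and a range from 0.07 to 1.21. In A/J, 2 of 34 rose, Mki67 and Ccnb2, with a median of 0.20 and a range from -0.38 to 0.68. Of all genes, 5.8% were called higher and 4.6% lower in C57BL/6, and 4.38% higher and 5.39% lower in A/J, with medians of -0.022 and -0.0026. All 3 resiquimod arrays lay above the ovalbumin arrays for 30 genes in C57BL/6 and for 5 in A/J, against 14.5% and 12.1% of all genes. This comparison and that of ovalbumin with PBS share the ovalbumin arrays of a strain.

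In A/J the count was 4 without the first ovalbumin array, and 4 without the 8 arrays with squamous transcripts. The median in A/J rested on 1 array, since it was 0.04 without the second ovalbumin array. At an unadjusted p under 0.05, 7 of the 34 genes passed in A/J and 30 in C57BL/6. In C57BL/6 the count without the 8 arrays was 18. Within the arrays with squamous transcripts the mean resiquimod difference was 0.24 in A/J and 0.86 in C57BL/6, and within those without them 0.40 and 0.66.

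Against PBS, the resiquimod groups had 28 of 34 mitosis genes higher in A/J and 34 of 34 in C57BL/6, where 5.86% and 9.61% of all genes were called higher. The median differences were 1.08 and 1.51, a 2.11-fold and a 2.84-fold difference. All 3 resiquimod arrays lay above the PBS arrays for 33 and 34 of the genes, against 14.9% and 18.3% of all genes. In A/J the 6 genes not called on the probe sets used were Kif2c, Kif4, Foxm1, Ect2, Melk and Ndc80, with differences between 0.29 and 0.65. Another probe set of Kif2c, with a mean of 3.62, was called higher in A/J, at 0.65 (adjusted p = 9.79e-05 by limma). Without the 8 arrays with squamous transcripts, both A/J groups kept 2 arrays, and 22 of the 28 A/J calls were kept and 6 lost. In C57BL/6 only 1 PBS array then remained, so the difference alone is given. The mean difference without the 8 arrays was 1.03 in A/J and 1.54 in C57BL/6, against 1.12 and 1.59 on all arrays. It was positive for 34 of 34 genes in both strains.

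**Figure D2:**
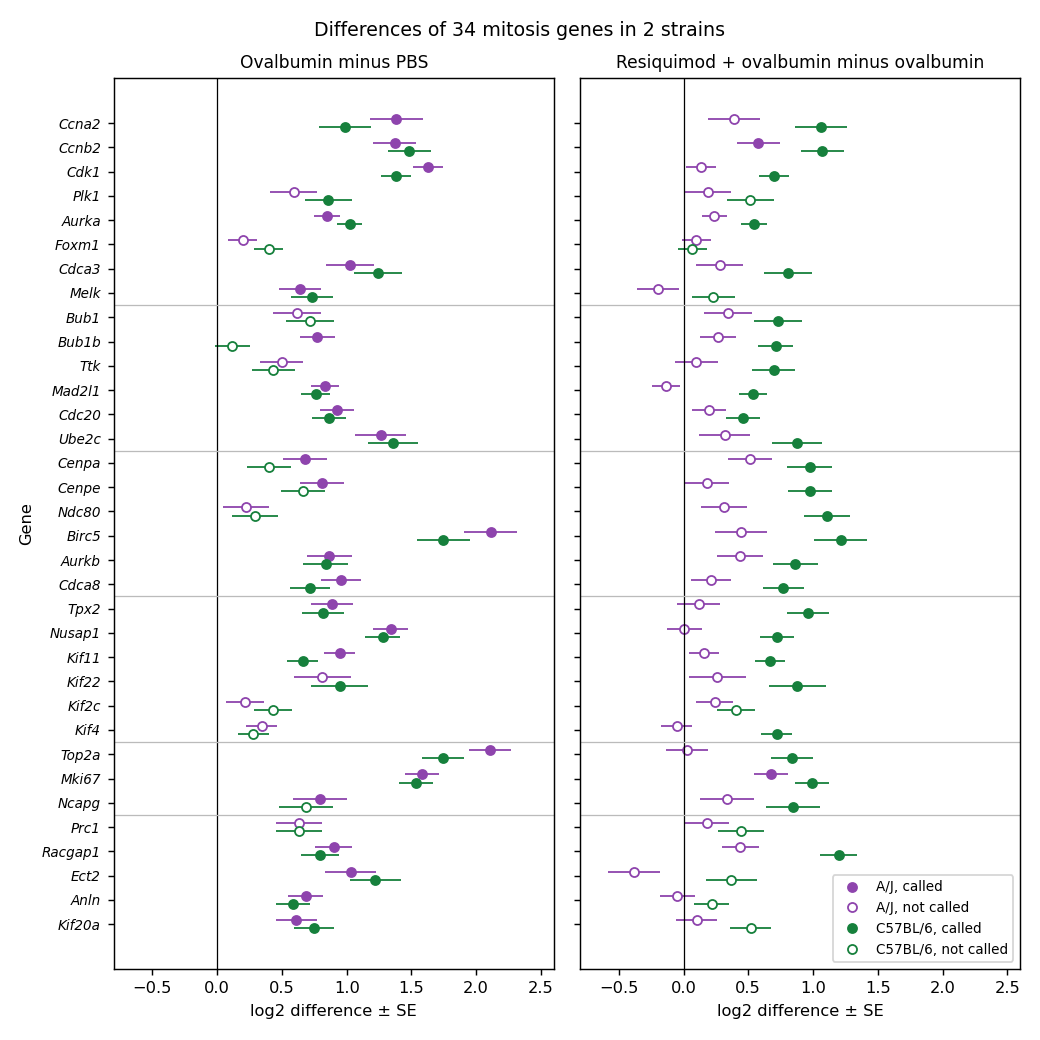
The log2 difference ± SE of each of the 34 mitosis genes (rows, grouped by role) for ovalbumin minus PBS (left) and resiquimod with ovalbumin minus ovalbumin (right), in A/J and C57BL/6, with filled points for genes called by limma at an adjusted p under 0.05. All ovalbumin differences lie above 0 in both strains, while for resiquimod 26 points of C57BL/6 and 2 of A/J are filled.

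Promoters of members that rose together are shown because mitotic genes are known to share elements that keep them silent in resting cells. The cell cycle genes homology region (CHR), with the letters TTTGAA, binds the DREAM complex, which represses these genes outside the cell cycle, and the CCAAT box binds the activator NF-Y. RefSeq windows of 300 bases on GRCm38.p6, 250 before and 50 after the transcription start, were found for 29 of the 34 genes. TTTGAA, read on both strands, was present in 23 of the 29 windows (79.3%), against 15.7% of the 14453 genes of the array that have such a window and 20.2% of all 27025 genes with one. CCAAT, on either strand, was present for 22 genes (75.9%), against 42.0% of the array's genes, and at least 2 copies for 15 (51.7%), against 14.9%. Both motifs occurred in the same window for 20 genes (69.0%), against 6.21%. A match within 50 bases of the start was found for TTTGAA in 21 genes (72.4%), against 4.1%, in a distance chosen after the matches were seen. The motifs overlapped each other in Cdca8 alone, and a match of letters is a description and not a binding site.

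The 5 promoters below belong to the 5 members with the greatest mean ovalbumin difference among those with TTTGAA in the window. Each runs from 250 bases before to 20 after the start, 5′ to 3′ on the strand of the gene, with TTTGAA and CCAAT matches and their reverse complements in capitals. Top2a lies on the minus strand at chr11:99024170-99024439, Mki67 on the minus strand at chr7:135716360-135716629, Cdk1 on the minus strand at chr10:69352893-69353162, Ccnb2 on the minus strand at chr9:70421535-70421804 and Ube2c on the plus strand at chr2:164769679-164769948.
Top2a: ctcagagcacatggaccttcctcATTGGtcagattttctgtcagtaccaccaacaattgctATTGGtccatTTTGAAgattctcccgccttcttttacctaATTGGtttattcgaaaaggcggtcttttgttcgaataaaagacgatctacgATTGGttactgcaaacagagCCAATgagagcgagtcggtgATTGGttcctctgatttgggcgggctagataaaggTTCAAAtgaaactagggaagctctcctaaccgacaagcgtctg
Mki67: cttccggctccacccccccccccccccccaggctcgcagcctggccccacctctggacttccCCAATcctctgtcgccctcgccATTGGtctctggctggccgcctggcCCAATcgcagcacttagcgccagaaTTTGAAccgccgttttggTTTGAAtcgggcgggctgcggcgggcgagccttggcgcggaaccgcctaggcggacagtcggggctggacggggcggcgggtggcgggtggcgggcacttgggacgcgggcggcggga
Cdk1: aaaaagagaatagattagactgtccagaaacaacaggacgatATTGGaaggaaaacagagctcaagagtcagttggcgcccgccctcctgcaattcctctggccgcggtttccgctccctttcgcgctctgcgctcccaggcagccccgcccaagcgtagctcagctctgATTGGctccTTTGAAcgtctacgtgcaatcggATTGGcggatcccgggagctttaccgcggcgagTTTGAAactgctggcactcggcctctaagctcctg
Ccnb2: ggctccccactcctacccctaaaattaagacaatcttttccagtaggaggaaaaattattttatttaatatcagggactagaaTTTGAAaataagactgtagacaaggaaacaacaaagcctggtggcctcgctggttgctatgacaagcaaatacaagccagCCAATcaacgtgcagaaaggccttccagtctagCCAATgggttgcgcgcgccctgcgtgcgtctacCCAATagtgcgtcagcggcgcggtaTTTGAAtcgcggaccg
Ube2c: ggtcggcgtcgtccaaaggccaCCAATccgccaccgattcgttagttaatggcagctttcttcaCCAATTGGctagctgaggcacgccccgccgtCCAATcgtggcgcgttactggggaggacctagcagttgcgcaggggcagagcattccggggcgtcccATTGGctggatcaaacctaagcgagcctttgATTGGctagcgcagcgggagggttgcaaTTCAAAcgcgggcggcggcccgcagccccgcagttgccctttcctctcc
These stretches hold 6 matches to CCAAT in Top2a, 6 in Ube2c, of which 1 pair overlaps, and 3 in each of the other three. TTTGAA occurs 2 times in each but Ube2c, which has 1. Counted from the start, the nearest match to TTTGAA begins at base -23 in Top2a, -29 in Ube2c, -15 in Cdk1, -98 in Mki67 and 5 in Ccnb2.

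Among the genes of mitotic entry, 6 of 8 rose after ovalbumin in A/J and 7 of 8 in C57BL/6, and after resiquimod 1 and 5 rose further. Beside the counts of this and the other role groups stand the shares of all genes called higher, for A/J and then C57BL/6. These were 3.2% and 1.44% after ovalbumin, and 4.38% and 5.8% from ovalbumin to resiquimod. Cdk1, the kinase that drives mitosis, had values of 4.40, 4.50 and 4.46 in A/J after PBS, 6.19, 5.90 and 6.15 after ovalbumin and 6.52, 6.02 and 6.10 after resiquimod. In C57BL/6 the values were 4.73, 4.92 and 4.95 after PBS, 6.17, 6.40 and 6.17 after ovalbumin and 6.96, 6.88 and 7.01 after resiquimod. The ovalbumin arrays lay above the PBS arrays in both strains, and the resiquimod arrays above the ovalbumin arrays in C57BL/6 alone. The ovalbumin difference was 1.62 ± 0.12 (SE) in A/J and 1.38 ± 0.12 in C57BL/6, with adjusted p = 3.32e-07 and 3.26e-06 by limma, and the resiquimod difference 0.14 ± 0.12 (adjusted p = 0.589) and 0.70 ± 0.12 (adjusted p = 0.000943).

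Ccnb2, cyclin B2, was 1 of the 2 genes called for resiquimod in A/J. Its A/J values were 4.66, 4.47 and 4.52 after PBS, 6.18, 5.42 and 6.17 after ovalbumin and 6.70, 6.36 and 6.45 after resiquimod, with the second ovalbumin array the lowest of its group. Those of C57BL/6 were 4.53, 4.83 and 4.63 after PBS, 5.93, 6.29 and 6.23 after ovalbumin and 7.14, 7.19 and 7.33 after resiquimod, and no pair of groups overlapped in either strain. Ovalbumin raised it by 1.37 ± 0.16 (SE) in A/J and 1.48 ± 0.16 in C57BL/6, that is 2.59-fold and 2.8-fold. The further resiquimod difference was 1.07 ± 0.16 in C57BL/6 (adjusted p = 0.000478) and 0.58 ± 0.16 in A/J (adjusted p = 0.0424 by limma), and the A/J call was lost on leaving out 13 of the 18 arrays in turn and with the replicate number as a block (adjusted p = 0.0528).

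Ccna2, cyclin A2, which acts in S phase and early mitosis, rose by 1.38 ± 0.20 in A/J and 0.99 ± 0.20 in C57BL/6 after ovalbumin, and by a further 1.06 ± 0.20 after resiquimod in C57BL/6. Aurka, the kinase of the spindle poles, rose by 0.85 and 1.02 after ovalbumin, and Cdca3, which triggers mitotic entry through destruction of the Wee1 kinase, by 1.03 and 1.24. Both rose again after resiquimod in C57BL/6, by 0.55 and 0.81. Plk1, polo-like kinase 1, passed for ovalbumin in C57BL/6 with 0.86 and had 0.59 in A/J (adjusted p = 0.0956 by limma). Melk, a kinase of dividing cells, rose by 0.64 and 0.73 after ovalbumin, with resiquimod differences of -0.19 and 0.23, neither called.

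Foxm1, the transcription factor that activates many of these genes late in the cycle, stood at the lower end. Its A/J values were 4.86, 4.96 and 5.04 after PBS, 5.10, 4.94 and 5.42 after ovalbumin and 5.33, 5.22 and 5.19 after resiquimod. In C57BL/6 they were 4.77, 4.92 and 4.69 after PBS, 5.13, 5.14 and 5.30 after ovalbumin and 5.32, 5.38 and 5.07 after resiquimod. The ovalbumin and PBS arrays overlapped in A/J and not in C57BL/6, and in both strains the resiquimod arrays overlapped the ovalbumin arrays. Its ovalbumin differences of 0.20 ± 0.11 and 0.40 ± 0.11 were not called, and the difference between the resiquimod and the PBS group of C57BL/6, 0.46 ± 0.11, was (adjusted p = 0.0108 by limma).

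The spindle checkpoint and the anaphase-promoting complex had 4 of 6 genes higher after ovalbumin in A/J and 3 of 6 in C57BL/6, and after resiquimod none in A/J and 6 of 6 in C57BL/6. Ube2c, the ubiquitin-conjugating enzyme of the anaphase-promoting complex, rose by 1.26 ± 0.19 and 1.36 ± 0.19 after ovalbumin and by 0.88 ± 0.19 after resiquimod in C57BL/6. Cdc20, the activator of the complex, rose by 0.93 and 0.86, and Mad2l1, the checkpoint protein that restrains Cdc20, by 0.83 and 0.76. Their resiquimod differences were 0.19 and -0.14 in A/J, not called, and 0.46 and 0.54 in C57BL/6, called. Another probe set of Cdc20, with a mean of 6.64, had 0.41 in C57BL/6 and was not called (adjusted p = 0.0664 by limma). A further one had 0.33 and was likewise not called. The kinases Bub1 and Ttk, which set up the checkpoint at kinetochores, were not called for ovalbumin, with 0.61 and 0.50 in A/J and 0.72 and 0.43 in C57BL/6, and rose by 0.73 and 0.70 after resiquimod in C57BL/6.

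Bub1b, the gene of the checkpoint protein BubR1, had the smallest ovalbumin difference of the list in C57BL/6, and it differed between the strains before any ovalbumin was inhaled. Its values in A/J were 4.44, 4.85 and 4.21 after PBS, 5.31, 5.19 and 5.33 after ovalbumin and 5.57, 5.47 and 5.58 after resiquimod. In C57BL/6 the PBS arrays gave 5.14, 5.27 and 5.31, the ovalbumin arrays 5.48, 5.53 and 5.06 and the resiquimod arrays 5.98, 6.08 and 6.14. After PBS the 3 C57BL/6 arrays lay above the 3 A/J arrays, whereas after ovalbumin the strains overlapped. The difference between the strains after PBS was -0.74 ± 0.14 (SE, A/J minus C57BL/6, adjusted p = 0.00158 by limma), and the ovalbumin difference was 0.77 ± 0.14 in A/J (adjusted p = 0.00362) and 0.12 ± 0.14 in C57BL/6 (adjusted p = 0.843).

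At the centromere and kinetochore, 5 of 6 genes rose after ovalbumin in A/J and 3 of 6 in C57BL/6, and after resiquimod none in A/J and 6 of 6 in C57BL/6. Birc5 encodes survivin, which with Aurkb and Cdca8 (borealin) forms the chromosomal passenger complex that corrects faulty attachments. Its values were 4.14, 4.06 and 4.14 in A/J after PBS, 6.52, 5.73 and 6.43 after ovalbumin and 6.93, 6.60 and 6.47 after resiquimod. In C57BL/6 the values were 4.35, 4.71 and 3.86 after PBS, 5.81, 6.12 and 6.22 after ovalbumin and 7.24, 7.25 and 7.31 after resiquimod. No PBS array reached an ovalbumin array, and the resiquimod arrays exceeded the ovalbumin arrays in C57BL/6 and overlapped them in A/J. The ovalbumin difference was 2.11 ± 0.20 (SE) in A/J and 1.75 ± 0.20 in C57BL/6, with adjusted p = 1.03e-05 and 0.000116 by limma, and the resiquimod difference 0.44 ± 0.20 (adjusted p = 0.238) and 1.21 ± 0.20 (adjusted p = 0.00101). The resiquimod group of C57BL/6 exceeded PBS 7.78-fold.

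Aurkb, the kinase of that complex, and Cdca8 rose by 0.86 and 0.96 in A/J after ovalbumin and by 0.84 and 0.71 in C57BL/6. Cenpa, the centromeric histone, and Cenpe, the kinesin that carries chromosomes to the spindle equator, rose in A/J by 0.68 and 0.81, with 0.40 and 0.67 in C57BL/6, not called. Ndc80, the microtubule-binding subunit of the kinetochore, had ovalbumin differences of 0.22 and 0.29, neither called, and rose by 1.11 ± 0.18 after resiquimod in C57BL/6 (adjusted p = 0.000732 by limma). Its resiquimod difference in A/J was 0.31 ± 0.18 (adjusted p = 0.377).

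Of the spindle proteins and kinesins, 3 of 6 rose after ovalbumin in A/J and 4 in C57BL/6, and after resiquimod none in A/J and 5 in C57BL/6. Nusap1, which bundles microtubules around chromosomes, rose by 1.34 ± 0.13 and 1.28 ± 0.13 after ovalbumin. Tpx2, the activator of Aurora A on the spindle, and Kif11, the kinesin that pushes the poles apart, rose by 0.89 and 0.94 in A/J and by 0.82 and 0.66 in C57BL/6. Kif22, the chromokinesin that aligns chromosome arms, passed in C57BL/6 with 0.95 on the probe set used and had 0.81 in A/J (adjusted p = 0.0565 by limma). Resiquimod raised these 4 in C57BL/6 by 0.72, 0.96, 0.67 and 0.88, beside 0.01, 0.12, 0.16 and 0.26 in A/J, where none was called. Kif2c, the kinesin that takes microtubules apart at centromeres, was called in none of these comparisons on the probe set used, with values between 0.22 and 0.43. Another probe set of Kif2c, with a mean of 3.62, was called for ovalbumin in A/J (0.55) and for resiquimod in C57BL/6 (0.43). It was not called for ovalbumin in C57BL/6 (0.30) or for resiquimod in A/J (0.10). A further one, with a mean of 3.05, was called in none.

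Kif4, a chromokinesin that shapes chromosomes and the central spindle, was the 1 gene called for a strain difference in the resiquimod effect. Its A/J values were 3.99, 3.98 and 3.96 after PBS, 4.44, 4.22 and 4.31 after ovalbumin and 4.36, 4.16 and 4.29 after resiquimod. In C57BL/6 they were 4.01, 3.88 and 3.79 after PBS, 3.96, 4.27 and 4.29 after ovalbumin and 4.69, 4.78 and 5.21 after resiquimod. In C57BL/6 the resiquimod arrays lay above all other arrays of the gene, while in A/J they overlapped the ovalbumin arrays. The resiquimod difference was 0.72 ± 0.12 (SE) in C57BL/6 (adjusted p = 0.00101 by limma) and -0.05 ± 0.12 in A/J (adjusted p = 0.872).

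All 3 genes of chromosome structure rose after ovalbumin in A/J and 2 of 3 in C57BL/6, and after resiquimod 1 of 3 and 3 of 3. Mki67, whose product Ki-67 coats mitotic chromosomes and is the standard histological marker of proliferation, had A/J values of 5.91, 5.98 and 5.88 after PBS, 7.68, 7.15 and 7.69 after ovalbumin and 8.45, 8.06 and 8.04 after resiquimod. In C57BL/6 they were 5.97, 6.08 and 5.88 after PBS, 7.37, 7.60 and 7.56 after ovalbumin and 8.54, 8.54 and 8.43 after resiquimod. Within each strain none of the 3 groups overlapped, and the resiquimod arrays of the 2 strains overlapped each other. Mki67 rose from ovalbumin to resiquimod by 0.68 ± 0.13 (SE) in A/J, 1.6-fold, and by 0.99 ± 0.13 in C57BL/6, 1.99-fold, with adjusted p = 0.0037 and 0.000116 by limma. The A/J call was kept on leaving out any of the 18 arrays.

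Top2a, the topoisomerase that untangles sister chromatids, was called for resiquimod in C57BL/6 and not in A/J. Its A/J values were 5.03, 5.29 and 5.20 after PBS, 7.52, 6.84 and 7.47 after ovalbumin and 7.64, 7.17 and 7.11 after resiquimod. In C57BL/6 they were 5.32, 5.66 and 5.41 after PBS, 7.06, 7.30 and 7.27 after ovalbumin and 8.03, 8.09 and 8.02 after resiquimod. The A/J resiquimod arrays overlapped the ovalbumin arrays, whereas those of C57BL/6 lay above them. The ovalbumin differences were 2.11 ± 0.16 and 1.75 ± 0.16, and the resiquimod differences 0.03 ± 0.16 in A/J (adjusted p = 0.955 by limma) and 0.84 ± 0.16 in C57BL/6 (adjusted p = 0.00339). Ncapg, a condensin subunit, rose by 0.79 after ovalbumin in A/J, had 0.68 in C57BL/6, not called, and rose by 0.85 after resiquimod in C57BL/6.

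Among the 5 genes of the central spindle and cytokinesis, 4 rose after ovalbumin in each strain, and after resiquimod 1 rose in C57BL/6 and none in A/J. The 1 was Racgap1, the GTPase-activating protein of the centralspindlin complex, which marks the division plane. In A/J it had 5.60, 5.59 and 5.35 after PBS, 6.77, 6.11 and 6.35 after ovalbumin and 7.03, 6.75 and 6.77 after resiquimod. In C57BL/6 it had 5.63, 5.55 and 5.24 after PBS, 6.25, 6.24 and 6.32 after ovalbumin and 7.56, 7.29 and 7.55 after resiquimod. The A/J resiquimod arrays overlapped the ovalbumin arrays at the first ovalbumin array, and in C57BL/6 the groups lay apart by more than the whole range of either. The resiquimod difference was 1.20 ± 0.14 (SE) in C57BL/6 (adjusted p = 5.16e-05 by limma) and 0.44 ± 0.14 in A/J (adjusted p = 0.0819).

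Ect2, the exchange factor that Racgap1 recruits to activate RhoA, had A/J values of 3.31, 3.22 and 3.11 after PBS, 4.34, 4.05 and 4.33 after ovalbumin and 3.87, 3.60 and 4.11 after resiquimod. In C57BL/6 they were 2.81, 2.90 and 3.19 after PBS, 3.64, 4.65 and 4.28 after ovalbumin and 4.31, 4.76 and 4.61 after resiquimod. In both strains the ovalbumin arrays lay above the PBS arrays and overlapped the resiquimod arrays. Ect2 rose by 1.03 and 1.22 after ovalbumin, and its resiquimod difference in A/J, -0.38 ± 0.20, was the lowest of the 34 and not called. Anln, the contractile ring scaffold anillin, rose by 0.68 and 0.58 after ovalbumin, and Kif20a, the kinesin that carries Plk1 to the central spindle, by 0.61 and 0.75. Prc1, which crosslinks the microtubules of the central spindle, had 0.63 and 0.63, neither called. For resiquimod these 3 had -0.05, 0.10 and 0.18 in A/J and 0.22, 0.52 and 0.44 in C57BL/6, none of them called. Another probe set of Prc1, with a mean of 4.73, had ovalbumin differences of 0.90 in A/J, called, and 0.58 in C57BL/6, not called. Its resiquimod differences were -0.01 in A/J, not called, and 0.62 in C57BL/6, called.

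**Figure D3:**
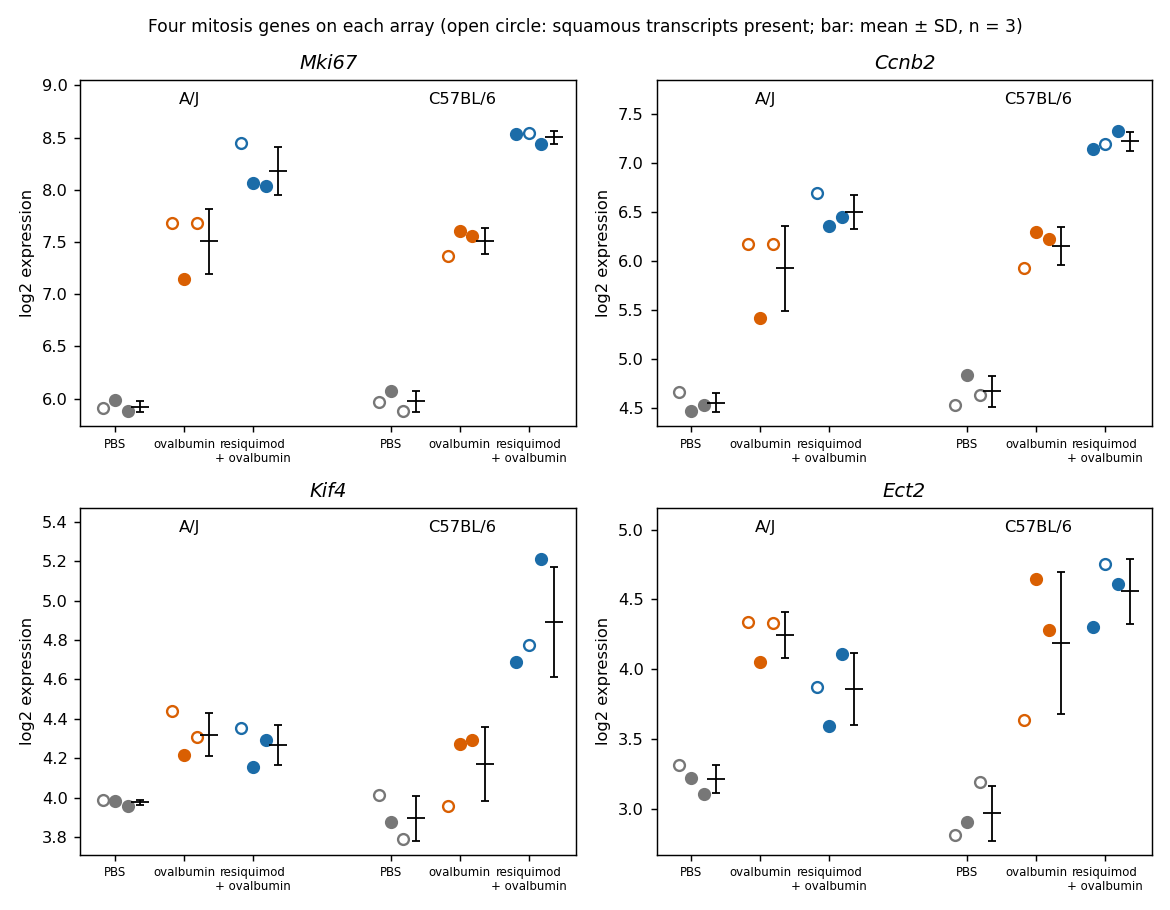
Log2 expression of Mki67, Ccnb2, Kif4 and Ect2 (vertical axes) on each of the 18 arrays, by strain and treatment (horizontal axes). Points are arrays, open where squamous transcripts were present, and bars give the mean ± SD of 3 arrays. Mki67 and Ccnb2 separate all groups of a strain, Kif4 is highest on the 3 resiquimod arrays of C57BL/6, and Ect2 in A/J has a resiquimod difference of -0.38 ± 0.20 (SE), which was not called.

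Most calls between the strains were made after resiquimod. After PBS, 2 of 34 mitosis genes were lower in A/J than in C57BL/6, Bub1b and Cdk1, and 4.56% of all genes were called lower. After ovalbumin, Aurka alone was lower in A/J, against 4.98% of all genes. After resiquimod 22 of 34 were lower in A/J, against 8.92% of all genes, and none was higher, against 7.54%. The median differences were -0.11, -0.03 and -0.60, and over all genes 0.012, 0.0037 and 0.012. All 3 A/J arrays lay below all 3 C57BL/6 arrays for 8, 1 and 28 of the 34 genes, and for 12.4%, 12.5% and 16.1% of all genes.

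The calls of Cdk1 after PBS and of Aurka after ovalbumin depended on single arrays. Cdk1 differed by -0.41 ± 0.12 (SE) after PBS (adjusted p = 0.0336 by limma), a call lost on leaving out any of the 3 A/J PBS arrays or the second or the third of C57BL/6. Aurka had 4.99, 4.69 and 4.86 in A/J and 5.01, 5.31 and 5.26 in C57BL/6 after ovalbumin, which did not overlap. Its difference of -0.35 ± 0.10 (adjusted p = 0.0331 by limma) was lost without the second or the third ovalbumin array of either strain. Without the 8 arrays with squamous transcripts, both calls of the full set after PBS, Bub1b and Cdk1, were lost. After resiquimod, where each strain then kept 2 arrays, 22 genes were called lower in A/J. Of the 22 calls of the full set after resiquimod, 17 were kept and 5 were lost. The mean strain difference after ovalbumin had opposite signs within the 2 sets of arrays, 0.26 in those with the transcripts and -0.40 in those without, while after resiquimod it was -0.36 and -0.66. Without the second resiquimod array of A/J, 14 were called lower after resiquimod.

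Of the 22 genes lower in A/J after resiquimod, Tpx2 had the greatest difference, with 5.41, 4.98 and 4.79 in A/J and 5.85, 6.21 and 6.15 in C57BL/6. It was -1.01 ± 0.16 (SE), a 2.01-fold difference (adjusted p = 0.000376 by limma). Cdca3 had 5.39, 5.12 and 5.09 in A/J and 6.20, 6.09 and 5.90 in C57BL/6. The A/J arrays of both genes lay below all 3 C57BL/6 arrays. Ndc80, at 3.92, 4.31 and 4.04 in A/J and 5.02, 4.50 and 5.32 in C57BL/6, also kept the strains apart.

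For Bub1 the arrays read 4.83, 4.02 and 4.61 in A/J and 5.09, 5.34 and 5.38 in C57BL/6. For Aurka they read 5.191, 5.054 and 5.002 in A/J and 5.76, 5.77 and 5.68 in C57BL/6, and for Aurkb 5.25, 4.88 and 4.72 in A/J and 5.46, 5.49 and 5.68 in C57BL/6. In these 3 kinases the highest A/J array lay below the lowest C57BL/6 array. Among the spindle genes, Nusap1 had 6.74, 6.32 and 6.49 in A/J and 7.23, 7.01 and 7.13 in C57BL/6. Kif11 had 4.49, 4.30 and 4.76 in A/J and 5.31, 4.87 and 4.91 in C57BL/6, and Kif22 7.02, 6.59 and 6.63 in A/J and 7.47, 7.42 and 7.44 in C57BL/6. All 3 again lay apart, Kif11 by the least.

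For Ccna2 the values were 7.08, 6.43 and 6.59 in A/J and 7.20, 7.40 and 7.49 in C57BL/6, and for Plk1 5.97, 5.79 and 5.93 in A/J and 6.43, 6.29 and 6.72 in C57BL/6. Mad2l1 had 6.83, 6.41 and 6.54 in A/J and 7.04, 7.08 and 7.06 in C57BL/6, and Cdca8 6.46, 6.19 and 6.09 in A/J and 6.96, 6.82 and 6.57 in C57BL/6. These entry, checkpoint and passenger genes did not overlap between the strains. Kif20a had 3.85, 3.85 and 4.25 in A/J and 4.71, 4.46 and 4.76 in C57BL/6, Ect2 the values given above, and Melk 3.99, 3.74 and 3.78 in A/J and 4.80, 4.50 and 4.11 in C57BL/6. In these 3 genes, too, the A/J arrays lay below those of C57BL/6. The others of the 22 were Top2a, Ccnb2, Cdk1, Bub1b, Kif4 and Racgap1, whose arrays are given above.

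The 12 genes not called after resiquimod included Mki67, with a strain difference of -0.32 ± 0.13 and overlapping arrays, and Birc5, with -0.60 ± 0.20 (adjusted p = 0.061 by limma) and no overlap. On the probe sets used, Kif2c and Foxm1 were the closest between strains, with -0.09 and -0.01. Other probe sets of Kif2c and Prc1 were called lower in A/J, at -0.30 and -0.63. All 34 differences were negative, and 30 had an unadjusted p under 0.05.

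The difference between the strains in the effect of resiquimod was tested as an interaction in the same fit. It was negative, meaning a greater rise in C57BL/6, for 33 of 34 genes, with a median of -0.52 and 18 genes at an unadjusted p under 0.05. After adjustment 1 gene passed, Kif4, at -0.77 ± 0.17 (SE, adjusted p = 0.0434 by limma), against 0.879% of all genes called lower. The call of Kif4 was lost on leaving out 15 of the 18 arrays in turn. The number of calls was 7 without the second ovalbumin array of A/J, 6 without its first resiquimod array, 1 without the first or the second resiquimod array of C57BL/6 and 0 without any of the other 14. Mad2l1 had -0.67 ± 0.16 (adjusted p = 0.0558), Nusap1 -0.72 ± 0.19 (adjusted p = 0.0936) and Racgap1 -0.76 ± 0.20 (adjusted p = 0.0979), and none of these passed. Foxm1 was the exception in sign, at 0.03 ± 0.16.

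The 34 genes varied together over the 18 arrays. The median Pearson correlation of their 561 pairs was 0.888, with a range from 0.456 to 0.990. After the group means were subtracted the median was 0.411, the range -0.447 to 0.943, and 91.6% of pairs were above 0. Arrays share the same normalization, so these correlations are a description. Ccnb2 followed the mean of the other members most closely, with r = 0.993, and Foxm1, Ndc80 and Kif2c the least, with 0.776, 0.811 and 0.804. Within groups the first resiquimod array of A/J was the highest of its group for 28 of 34 genes, and the second ovalbumin array of A/J the lowest for 34.

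**Figure D4:**
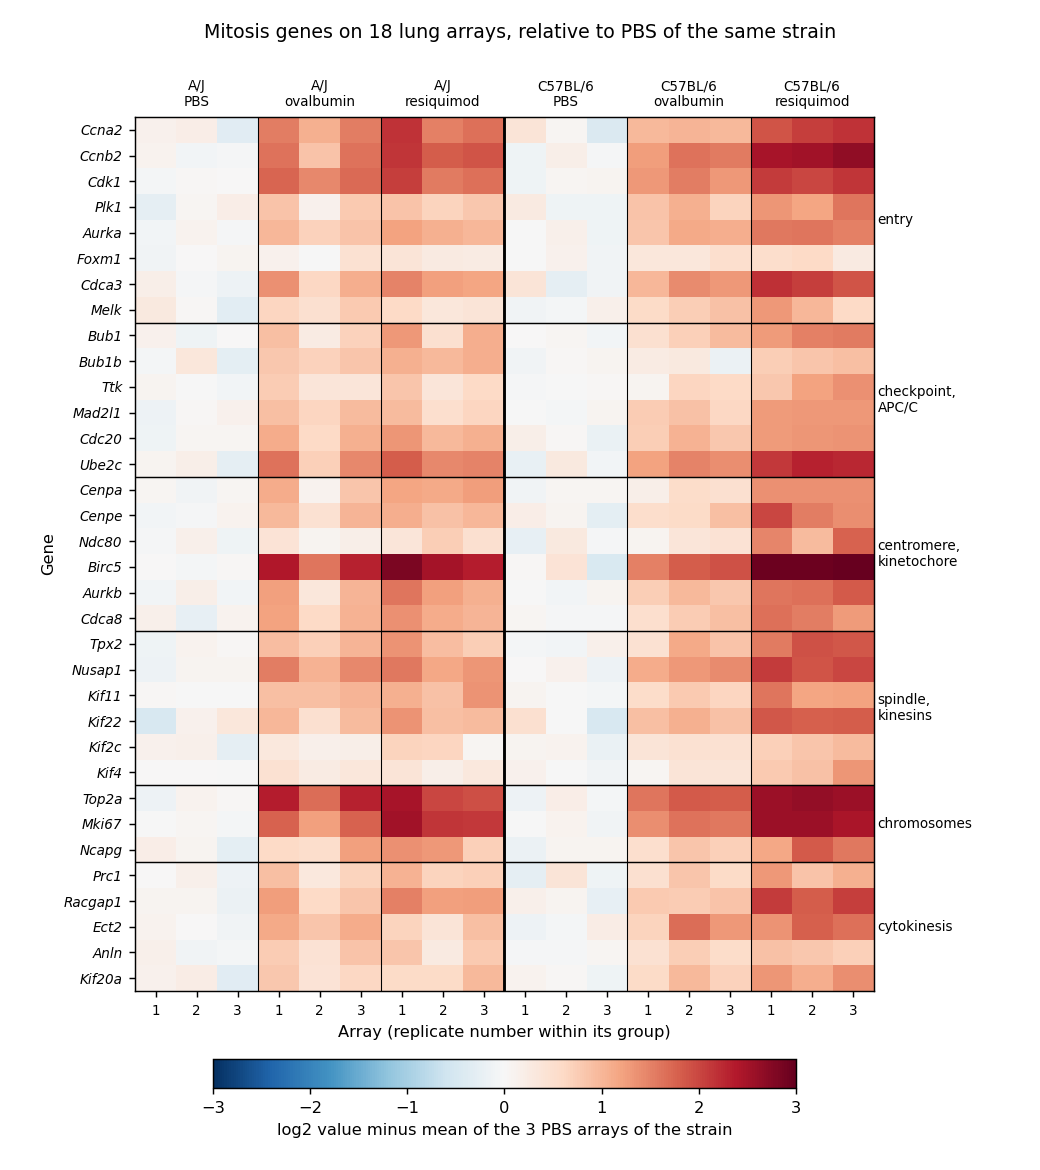
Log2 value of each of the 34 mitosis genes (rows, grouped by role) on each of the 18 arrays (columns, with the replicate number within the group), minus the mean of the 3 PBS arrays of the same strain. Red is higher and blue lower than PBS. The columns of the C57BL/6 resiquimod group are the darkest, Top2a, Mki67 and Birc5 are among the darkest rows, and the second A/J ovalbumin array is paler than its neighbours.

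Some members had low levels after PBS. In the PBS groups 2 genes in A/J and 3 in C57BL/6 had a mean under the 25th percentile of all values, 3.33, and 19 and 17 had one under the median. Those under 3.33 were Kif20a and Ect2 in A/J and Kif2c, Ect2 and Ttk in C57BL/6. Kif20a and Ect2 were called after ovalbumin in both strains. A further 37 probe sets exist for 22 of the 34 genes. Of these, 8 were called higher after ovalbumin in A/J and 5 in C57BL/6, 0 and 14 after resiquimod, and none lower. Their differences were positive for 28, 30, 26 and 30 of 37 in the same order. The probe sets used for Cdc20, Kif22 and Aurkb carry the suffix that marks probes shared with similar sequences, and those for Cdca8 and Prc1 the suffix for probes shared between transcripts.

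Other genes of the cell cycle were described by lists, which were chosen with earlier results of these data known. Beside the counts of these lists stand the shares of all genes called higher, for A/J and then C57BL/6. These were 3.2% and 1.44% after ovalbumin, and 4.38% and 5.8% from ovalbumin to resiquimod. Of 59 further mitotic genes measured out of 60, 27 rose after ovalbumin in A/J and 23 in C57BL/6, and after resiquimod 1 and 29. None fell. Their median differences were 0.46, 0.42, 0.07 and 0.38, each less than that of the 34 genes. Cdca5 (sororin), which protects sister chromatid cohesion, rose by 1.68 ± 0.17 and 1.76 ± 0.17 after ovalbumin, and Cep55, which organizes abscission, by 1.77 ± 0.23 and 1.28 ± 0.23. After resiquimod in C57BL/6 they rose by 1.09 and 1.14. In A/J the 1 gene called was Sgo1 (shugoshin), with 0.27, a call lost on leaving out 5 of the 18 arrays in turn. A count of 1 of 59 is a smaller share than the 4.38% of all genes.

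Among genes of DNA replication and S phase, of which 38 out of 40 were measured, 21 rose after ovalbumin in A/J and 15 in C57BL/6, with medians of 0.39 and 0.40. The shares of all genes called higher were 3.2% and 1.44% after ovalbumin, and after resiquimod 4.38% and 5.8%. After resiquimod 24 rose in C57BL/6, with a median of 0.42, and in A/J none rose and 2 fell, with a median of -0.10. The share of 2 of 38 is near the 5.39% of all genes that were called lower in that comparison. Rrm2, the small subunit of ribonucleotide reductase, rose by 1.84 and 1.70 after ovalbumin, and Uhrf1, which maintains DNA methylation at forks, by 1.70 and 1.24. In A/J the 2 genes that fell after resiquimod were Uhrf1, at -0.54 ± 0.13 (SE, adjusted p = 0.0157 by limma), and Mcm3, a subunit of the replicative helicase, at -0.36 ± 0.10 (adjusted p = 0.0354), and each call was lost on leaving out 3 of the 18 arrays in turn. The strain difference in the resiquimod effect was called for 13 of the 38, all negative, where 0.879% of all genes were called lower. Among the 13 were Uhrf1 at -1.18 ± 0.18, the licensing factor Cdc6 at -1.17 ± 0.25, Mcm5 at -0.99 ± 0.17 and Mcm3 at -0.88 ± 0.14. The call of Cdc6 was lost on leaving out 12 of the 18 arrays in turn, and those of Uhrf1, Mcm5 and Mcm3 on leaving out none. It was called for 3 of the 59 further mitotic genes, the condensin subunits Ncapd2 (-0.90) and Ncaph (-0.56) and the kinetochore gene Zwilch (-0.88). The call of Ncaph was lost on leaving out 16 of the 18 arrays in turn and that of Ncapd2 on leaving out 9, and that of Zwilch was kept throughout.

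Regulators of G1 showed few calls for ovalbumin, where 1.18% of all genes were called lower in A/J. Of 16 cyclins, kinases and inhibitors of G1, none rose and 1 fell after ovalbumin in A/J, the inhibitor Cdkn2b with a difference of -0.36, and none was called in C57BL/6. After resiquimod the inhibitor Cdkn1a (p21) rose by 0.59 ± 0.16 and Ccng2 (cyclin G2) by 0.34 ± 0.07 in A/J, with adjusted p = 0.0312 and 0.00728 by limma, and Ccnd1 (cyclin D1) by 0.45 ± 0.08 in C57BL/6 (adjusted p = 0.00188). These calls, 2 of 16 in A/J and 1 of 16 in C57BL/6, are set beside 4.38% and 5.8% of all genes called higher. The resiquimod effect on Ccnd1 differed between strains by -0.58 ± 0.12. On leaving out each of the 18 arrays in turn, the call of Cdkn2b was lost 5 times, that of Cdkn1a 4 times, the strain difference of Ccnd1 7 times and its call in C57BL/6 and that of Ccng2 not at all. Of 17 genes of the cell cycle transcription complexes, the atypical repressors E2f7 and E2f8 rose after ovalbumin in C57BL/6 by 0.92 and 0.56, and none was called in A/J. After resiquimod E2f8, Rbl1 and E2f2 rose in C57BL/6 by 0.58, 0.43 and 0.39. In A/J E2f3 and Tfdp1 fell, with differences of -0.45 and -0.39, and Rbl2 (p130), a repressor subunit of DREAM in resting cells, rose by 0.27. These 3 are set beside 5.39% of all genes called lower and 4.38% called higher in that comparison. The call of Rbl2 was lost on leaving out 12 of the 18 arrays in turn, that of Tfdp1 on leaving out 4 and that of E2f3 on leaving out 1. The ovalbumin call of E2f8 in C57BL/6 was lost in 5 of these fits and the resiquimod call of E2f2 in 4.

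After resiquimod, 33 of the 59 further mitotic genes and 31 of the 38 S phase genes were lower in A/J than in C57BL/6. Of the 16 G1 genes, 5 were lower and 2 higher in A/J. Of all genes, 8.92% were called lower and 7.54% higher. Pttg1, which encodes securin, was lower in A/J under all 3 treatments, with differences of -2.89 after PBS, -2.30 after ovalbumin and -2.15 after resiquimod. Kif23, the partner of Racgap1 in centralspindlin, differed by -0.77, -1.08 and -1.47. Ccnd1 was lower in A/J after resiquimod, at -1.03 ± 0.08 (SE, adjusted p = 1.62e-07 by limma), and Cdkn1a was higher by 0.59 ± 0.16 (adjusted p = 0.0174). Ccnd3 and Ccnd2 were also lower after resiquimod, at -0.53 and -0.48, and Ccnd2 was lower after PBS too, at -0.46.

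**Figure D5:**
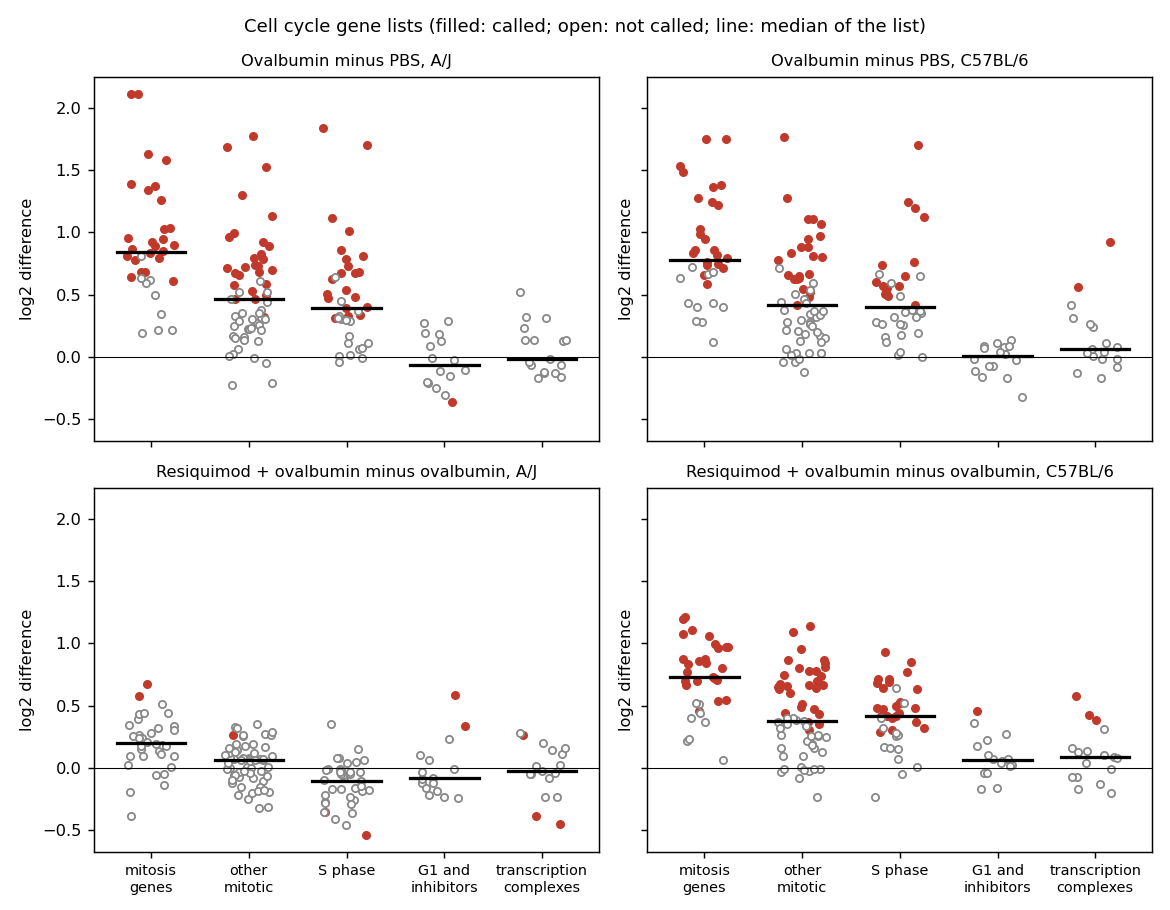
Log2 difference (vertical axis) of each gene of 5 cell cycle lists (horizontal axis, with random sideways spread) for ovalbumin minus PBS (upper panels) and resiquimod with ovalbumin minus ovalbumin (lower panels) in A/J (left) and C57BL/6 (right). Filled points were called by limma, and lines are list medians. The medians of the mitosis genes are 0.84 and 0.78 in the upper panels and 0.20 and 0.73 in the lower ones, and that of the S phase genes in A/J after resiquimod is -0.10.

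The genes outside the list whose pattern was most like the mean of the 34 were, by Pearson r over the 18 arrays, Cks2 (0.988), H2ax (0.986), Aspm (0.986), Tk1 (0.985), Lpxn (0.982), Rrm2 (0.982), Cdca2 (0.981), Cdca5 (0.980), Cep55 (0.980) and Smc2 (0.974). Of these 10, Cks2, Aspm, Cdca2, Cdca5, Cep55 and Smc2 belong to the further mitotic genes and Tk1 and Rrm2 to the S phase genes. H2ax, the histone variant that is phosphorylated at DNA breaks, and Lpxn, the focal adhesion protein leupaxin of blood cells, are in neither. Lpxn had group means of 5.14, 6.15 and 6.52 in A/J and 5.47, 6.37 and 7.08 in C57BL/6, in the order PBS, ovalbumin and resiquimod.

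Markers of several cell types moved with the treatments, and their part in the differences of the mitosis genes was not tested. Beside the counts of all marker lists stand the shares of all genes, for A/J and then C57BL/6. After ovalbumin 3.2% and 1.44% were called higher and 1.18% and 0.154% lower. From ovalbumin to resiquimod 4.38% and 5.8% were called higher and 5.39% and 4.6% lower. The 8 markers of NK and cytotoxic lymphocytes all rose after resiquimod in both strains, with their mean going from between 4.45 and 4.52 to between 6.89 and 7.36 in A/J and from between 5.03 and 5.18 to between 8.05 and 8.32 in C57BL/6. None of the 8 rose after ovalbumin, and 1 fell in A/J. Of 5 B cell markers measured, 4 rose after resiquimod in C57BL/6, where their mean went from between 6.41 and 6.74 to between 7.77 and 8.06. None was called in A/J, where the ranges were 6.14 to 7.27 and 6.90 to 7.52. Of 6 macrophage markers, 3 rose after ovalbumin in A/J and 1 in C57BL/6, and 2 and 4 after resiquimod, with list means between 8.28 and 8.39 after PBS, 8.78 and 8.89 after ovalbumin and 9.10 and 9.39 after resiquimod in A/J. In C57BL/6 these ran from 7.92 to 8.21, 8.18 to 8.28 and 8.85 to 8.96.

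Of 8 T cell markers, none was called after ovalbumin, and after resiquimod 1 fell in A/J and 1 rose in C57BL/6, with list means between 4.98 and 5.26 after ovalbumin and 4.55 and 4.94 after resiquimod in A/J, and 5.03 and 5.06 and then 5.10 and 5.34 in C57BL/6. Of 6 neutrophil markers, 4 rose after resiquimod in each strain and none after ovalbumin, with list means between 6.60 and 6.63 and then 7.79 and 8.78 in A/J, and 7.01 and 7.47 and then 8.10 and 8.36 in C57BL/6. Of 5 eosinophil markers, 3 rose after ovalbumin in A/J and none in C57BL/6, while after resiquimod 4 fell in A/J and 1 rose and 1 fell in C57BL/6. Their mean was 3.75 to 3.79, 4.11 to 4.35 and 3.45 to 3.70 in A/J after PBS, ovalbumin and resiquimod, and between 3.62 and 3.90 in all C57BL/6 groups. Most of these eosinophil markers were low, which limits their counts. Epx, Ccr3 and Il5ra were at most 3.63 and Prg2 at most 4.28 on any array, beside a 25th percentile of 3.33. Goblet cell markers went the other way from the mitosis genes after resiquimod. All 6 rose after ovalbumin in A/J and 5 in C57BL/6, and all 6 fell after resiquimod in both strains. Their mean was 5.28 to 5.86, 8.90 to 9.05 and 6.60 to 7.08 in A/J and 5.08 to 5.21, 8.20 to 8.52 and 5.94 to 6.76 in C57BL/6, in the same order. Of 5 plasma cell markers, none was called after ovalbumin, and after resiquimod 1 rose in A/J and 1 rose and 1 fell in C57BL/6. Their mean was 7.95 to 8.63 after ovalbumin and 8.88 to 9.70 after resiquimod in A/J. In C57BL/6 it was 7.90 to 8.45 and then 8.74 to 9.48, and the ranges did not overlap in either strain. Of 5 red cell markers measured, 2, Alas2 and Slc4a1, fell after resiquimod in both strains, and Rhag and Hemgn were at or below the 25th percentile on all arrays. The mean of the 5 was between 4.72 and 4.97 after ovalbumin and between 3.90 and 4.06 after resiquimod in A/J, and between 4.63 and 4.82 and then 3.62 and 3.65 in C57BL/6. Of 5 endothelial markers, Pecam1 and Emcn rose after resiquimod in C57BL/6, by 0.52 and 0.73, where the list mean went from between 9.35 and 9.59 to between 9.71 and 9.96 without overlap. In A/J Tie1 rose by 0.56, Emcn had a difference of -0.53 and was called lower, and the list mean was 9.36 to 9.58 and then 9.44 to 9.70. The resiquimod effect on Emcn differed between the strains by -1.26 ± 0.15 (SE, adjusted p = 0.00049 by limma). Of 6 alveolar markers, 1 fell after resiquimod in C57BL/6 and none was called in A/J, with list means from 12.44 to 12.55 and then 12.30 to 12.39 in C57BL/6 and from 12.46 to 12.52 and then 12.37 to 12.51 in A/J. Of 5 airway markers, 1 fell in C57BL/6 and 1 rose in A/J, with list means from 11.08 to 11.23 and then 10.82 to 10.98 in C57BL/6 and overlapping ranges in A/J, with a highest value of 11.19 and then 11.26. RNA quality was read from the actin control probe sets as the 3′ minus 5′ log2 difference, which averaged 0.38 after ovalbumin and 0.48 after resiquimod in A/J without overlap (exact two-sided permutation test p = 0.1, the smallest that 3 against 3 arrays can give), and its part in the result was not tested. Between the strains after ovalbumin it was 0.38 in A/J and 0.51 in C57BL/6, likewise without overlap (exact permutation p = 0.1).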

How the data were processed

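Total RNA of whole lungs was hybridized to Affymetrix mouse expression arrays. The deposited table holds log2 expression values that the authors made with RMA (robust multi-array average) and the affy package, per the submitters' processing notes, with versions not given. All 18 columns and all 45101 probe sets were read, and 64 control probe sets were left out. In the platform annotation, 34945 of the remaining 45037 probe sets name 1 gene, 932 name more than 1 and 9160 are unnamed here. All 34 measured members matched RefSeq by identifier and symbol. One linear model with a mean for each of the 6 groups was fitted to every probe set by limma 3.58.1 (R 4.3.3), with 12 residual and 4.3 prior degrees of freedom. The 11 comparisons were tested two-sided, and Benjamini-Hochberg adjustment used the p-values of all 45037. Array medians are nearly equal after RMA. The number of arrays limits the precision.

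The members and gene lists were chosen with earlier results of these data known. All members may be named. Values on each array are given for the 2 members with the greatest difference in each ovalbumin and resiquimod comparison, the member with the smallest ovalbumin difference in each strain, Mki67, Top2a and members called between strains. Of other lists up to 4 called genes with the greatest differences, or 2 as values where none was called, may be named, and 10 genes by correlation. The pipeline was tested on simulated data. Alternatives were other moderation, groups, probe set rules, filters, centring, array weights, a replicate block and leaving out each array. Replicate numbers of the labels do not state a shared batch, and deviations from group means of same-numbered arrays had correlations from -0.585 to 0.502, above 0.1 in 15 of 27 pairs, so arrays were not paired in the fit. All 3 pairs exceeded 0.1 for resiquimod against PBS in A/J alone, from 0.157 to 0.502, where the block also called 28 members and kept 27 of the 28 calls, losing Ttk (adjusted p = 0.0502).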

Additional observations from a re-analysis of the deposited data

Results flagged for a closer look

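The resiquimod difference of Kif4 differed between the strains, at -0.77 (log2, A/J minus C57BL/6) by limma's interaction test, with an adjusted p of 0.0434. The resiquimod arrays of C57BL/6 read 4.69, 4.78 and 5.21 and those of A/J 4.36, 4.16 and 4.29. The adjusted p ranged from below to above 0.05 when single arrays were left out, and 15 of 18 such fits did not call the gene.

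Other genes named in the text also differed between the strains in their resiquimod effect by the same test, each with the value in A/J below that in C57BL/6. The difference was -1.18 for Uhrf1, -1.17 for Cdc6, -0.99 for Mcm5 and -0.88 for Mcm3 among the S phase genes, and -0.90 for Ncapd2, -0.56 for Ncaph and -0.88 for Zwilch among the further mitotic genes. It was -0.58 for Ccnd1 and -1.26 for the endothelial marker Emcn.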

How the results depend on the processing

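No member called in the full analysis changed sign under any alternative. Leaving out single arrays gave 18 to 29 members called for ovalbumin against PBS in A/J and 13 to 24 in C57BL/6, 1 to 4 and 20 to 28 for resiquimod with ovalbumin against ovalbumin, and 26 to 29 and 33 to 34 for resiquimod with ovalbumin against PBS. Between strains it gave 1 to 2 after PBS, 0 to 1 after ovalbumin and 14 to 28 after resiquimod, 0 throughout for the strain difference in the ovalbumin effect and 0 to 7 for that in the resiquimod effect.

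The arrays with squamous transcripts were left out as an alternative chosen after seeing the data. Then 6 members were called for ovalbumin in A/J and 12 in C57BL/6, 4 for resiquimod against ovalbumin in A/J, 1 between strains after PBS, 5 after ovalbumin and 0 for the strain difference in the resiquimod effect. Groups then hold 1 or 2 arrays, and a lone array is assumed to vary like the other groups. With only the groups of a comparison in the fit, 0 members were called for resiquimod in A/J, 0 between strains after ovalbumin and 0 for the strain difference in the resiquimod effect. Array weights gave 1 for resiquimod in A/J and 0 for the strain difference in its effect. Trended and robust moderation gave 0 between strains after ovalbumin and 4 for the strain difference in the resiquimod effect, and the mean of a gene's probe sets gave 0 and 4 for the same. The cause of these changes was not tested. With the replicate block the counts for ovalbumin were 21 in A/J and 21 in C57BL/6, for resiquimod against ovalbumin 2 and 25, between strains after resiquimod 21, and for the strain difference in the resiquimod effect 0, where the call of Kif4 was lost. Of the 2 calls for resiquimod in A/J the block kept Mki67 (adjusted p = 0.0065 by limma) and lost Ccnb2 (adjusted p = 0.0528). Under a filter on low values (log2 of at least 5 on 3 arrays) fewer members were tested. Bub1 and Aurkb reached that level on resiquimod arrays alone, so counts under this filter cannot serve as a check of the resiquimod comparisons. The PBS means of Kif2c, Kif20a, Ttk and Ect2 lay below the 25th percentile in at least 1 strain.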
